A study of Mus musculus with 4 samples.

Results

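The sites described here were those at which Gata4 was found in both WT and DKO mesoderm by ChIP-seq, compared by the height of their peaks. The sites were selected on the positions of the peaks: a WT peak and a DKO peak on the same chromosome were paired when each was the nearest to the other and they lay not more than 100 bp apart. The heights played no part in the pairing, and chose the extremes described below. These conditions gave 7025 paired sites, 34.4% of the 20410 WT peaks and 30.9% of the 22733 DKO peaks. Both peak lists came from Flk1(+) mesoderm progenitors that were sorted at day 4.5 of the differentiation of J1 ES cells on the 129 background and that had been given 100 nM Dex for 3 hr. The WT cells were of clone J1G4.2 and the DKO cells, Dnmt3a-/-Dnmt3b-/-, of clone 16G4.3. Each genotype was therefore a single clone. Both clones carried a transgene, driven by the CAG promoter, for a fusion of Gata4 to the hormone-binding part of the glucocorticoid receptor. Dex activated this fusion protein. The paper reports that endogenous Gata4 was also expressed in the Flk1(+) cells before that activation. The peak heights do not separate the endogenous protein from the fusion. Undifferentiated WT and DKO ES cells without Dex, treated with the same 3 mixed Gata4 antibodies, were the controls against which each list was called. There was 1 library per condition. All differences below are therefore descriptions of 2 libraries without a test, and intervals in parentheses are 95% intervals that cover counting over sites only. The lists give no read numbers. The paper reports more mapped reads for the DKO than for the WT Flk1(+) library, but whether heights were scaled for depth is not stated. The lists also hold no expression values by which the Flk1 label or the loss of either Dnmt3 gene could be checked.

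Gata4 is a zinc-finger transcription factor of early heart and endoderm that binds the short motif WGATAA (W stands for A or T). Dnmt3a and Dnmt3b are the de novo DNA methyltransferases, which add methyl groups to the cytosine of CpG dinucleotides. In mammalian genomes most CpGs away from promoters are methylated, whereas the dense clusters of CpGs at many promoters, the CpG islands, are mostly free of methylation. The question addressed by pairing the lists was whether sites occupied in both genotypes carried Gata4 signal in the same proportion, and which kinds of sites lay at either extreme.

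The sequences below show, 5′ to 3′ on the plus strand of mm9, the central 101 bases of sites whose height leaned strongly to one genotype. Capitals mark WGATAA on either strand, a word that T-box factors bind (AGGTGTGA, or its core AGGTG by itself) and a word that Ets factors bind (AGGAAG). Sites with relatively higher peaks in WT lay 5862 bp upstream of Bcmo1, 56175 bp upstream of Hapln1, 6342 bp downstream of Xrcc4, in an intron of Adamts14, 67 bp upstream of Spink4, 2695 bp downstream of Cdkal1 and in an intron of Crtc3. They are shown because they hold the GATA motif or the T-box word, both of which were more frequent at that extreme away from promoters. The Spink4 site lies at a gene start and is not among those distal sites. Stretches near Csl and in Cacna1a and Vac14, also at this extreme, hold neither word and are not shown.
Bcmo1, chr8:119613842-119613942: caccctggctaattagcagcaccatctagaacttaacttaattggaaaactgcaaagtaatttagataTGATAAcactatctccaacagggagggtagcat
Hapln1, chr13:89624016-89624116: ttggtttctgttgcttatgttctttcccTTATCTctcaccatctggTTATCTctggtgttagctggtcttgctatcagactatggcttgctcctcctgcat
Xrcc4, chr13:89907240-89907340: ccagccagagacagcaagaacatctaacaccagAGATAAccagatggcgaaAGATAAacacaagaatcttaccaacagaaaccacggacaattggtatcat
Adamts14, chr10:60724127-60724227: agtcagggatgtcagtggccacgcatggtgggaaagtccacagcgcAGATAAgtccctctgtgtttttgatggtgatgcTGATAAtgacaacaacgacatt
Spink4, chr4:40866968-40867068: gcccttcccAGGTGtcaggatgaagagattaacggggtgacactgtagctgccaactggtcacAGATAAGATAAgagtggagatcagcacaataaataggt
Cdkal1, chr13:29280870-29280970: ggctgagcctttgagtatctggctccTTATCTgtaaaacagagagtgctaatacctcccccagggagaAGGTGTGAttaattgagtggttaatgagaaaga
Crtc3, chr7:87747932-87748032: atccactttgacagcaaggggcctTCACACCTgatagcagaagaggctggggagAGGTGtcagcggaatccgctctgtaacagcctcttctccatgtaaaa
Sites with relatively higher peaks in DKO lay 16295 bp upstream of Ipp, in an intron of Plcg2, 1772 bp upstream of Shank3, 283479 bp downstream of Fat4, and in introns of Hhex and Flt1. They are shown for the Ets word, which all of those shown but that of Hhex hold and which was in 55.0% of distal DKO-high sites. Stretches near Gm1631 and Gm13691 and at Xbp1, also at this extreme, hold no Ets word and are not shown. The stretches of Hhex and Flt1 hold no WGATAA, but the 501-bp window of the Flt1 site holds 3. The stretch of Hhex holds CGATAA on the other strand, which is not marked.
Ipp, chr4:116163809-116163909: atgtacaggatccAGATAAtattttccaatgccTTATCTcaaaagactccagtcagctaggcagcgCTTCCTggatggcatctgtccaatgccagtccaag
Plcg2, chr8:120120832-120120932: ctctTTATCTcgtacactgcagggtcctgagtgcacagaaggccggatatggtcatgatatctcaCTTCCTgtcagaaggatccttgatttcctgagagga
Shank3, chr15:89328232-89328332: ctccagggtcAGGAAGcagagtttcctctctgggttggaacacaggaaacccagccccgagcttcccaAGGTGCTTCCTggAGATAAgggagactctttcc
Fat4, chr3:39194336-39194436: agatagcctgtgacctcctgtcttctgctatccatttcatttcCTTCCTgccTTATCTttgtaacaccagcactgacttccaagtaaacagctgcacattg
Hhex, chr19:37510252-37510352: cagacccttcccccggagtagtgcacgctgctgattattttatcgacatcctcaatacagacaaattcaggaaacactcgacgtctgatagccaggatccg
Flt1, chr5:148469565-148469665: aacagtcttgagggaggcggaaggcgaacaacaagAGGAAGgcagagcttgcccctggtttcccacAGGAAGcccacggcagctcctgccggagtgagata
The last 2 sequences belong to a single gene, Kdr, which encodes Flk1 itself and whose sites leaned to opposite genotypes. The site downstream of the gene was relatively higher in WT and the site in its intron relatively higher in DKO, and both hold 2 GATA motifs.
Kdr downstream, chr5:76326116-76326216: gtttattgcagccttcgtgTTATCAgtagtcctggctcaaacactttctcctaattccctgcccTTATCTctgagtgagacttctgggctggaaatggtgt
Kdr intron, chr5:76358353-76358453: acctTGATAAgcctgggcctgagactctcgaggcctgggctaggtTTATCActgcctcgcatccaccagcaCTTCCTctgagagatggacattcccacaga

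Peaks at the paired sites were lower in the DKO list, that of the library with more mapped reads. The median height was 11.3 in WT (quartiles 8.03 to 16.4, highest 142) and 8.11 in DKO (quartiles 6.26 to 11.4, highest 101), in the units of the authors' profile, and the WT height was the greater at 5306 sites (75.5%). Because the sources do not say whether heights were scaled for depth, each height was divided by the median of its list over the paired sites, which removed a factor of 1.39. All ratios below are log2 of the scaled DKO height over the scaled WT height, so that a positive value means relatively higher in DKO. The paired peaks lay a median of 19 bp apart, and 2151 of them (30.6%) were within 10 bp. Heights followed one another across sites, with r = 0.62 for their logarithms and a Spearman's rho of 0.54 (n = 7025 sites, which share 2 libraries).

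The ratio had a median of 0.11 and quartiles of −0.38 and 0.47, and its extremes were −2.09 and 2.14. A scaled height at least 1.5 times higher in DKO, that is a ratio of 0.58 or more, was found at 1240 sites (17.7%), and one at least 1.5 times higher in WT at 1214 sites (17.3%). Most of the paired sites thus stayed inside this range. After division by the ES heights, described below, the shares were 13.7% and 24.0%, and among sites with both heights at least 10 they were 11.8% and 17.5%. The 702 sites with the lowest ratios formed the WT-high end and the 702 with the highest ratios the DKO-high end. The last site inside the WT-high end had a ratio of −0.827 and the next outside it −0.826, while the DKO-high end began at 0.743 with the next site outside at 0.742. At the WT-high end the median height was 21.6 in WT and 6.88 in DKO, and at the DKO-high end it was 7.36 in WT and 11.1 in DKO. These heights chose the ends and are given as their description. The authors' calling threshold put the lowest peaks of both lists at a height of 5, and 7.07% of WT and 20.3% of DKO heights were under 6, which bounded the ratio of low sites.

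**Figure D1:**
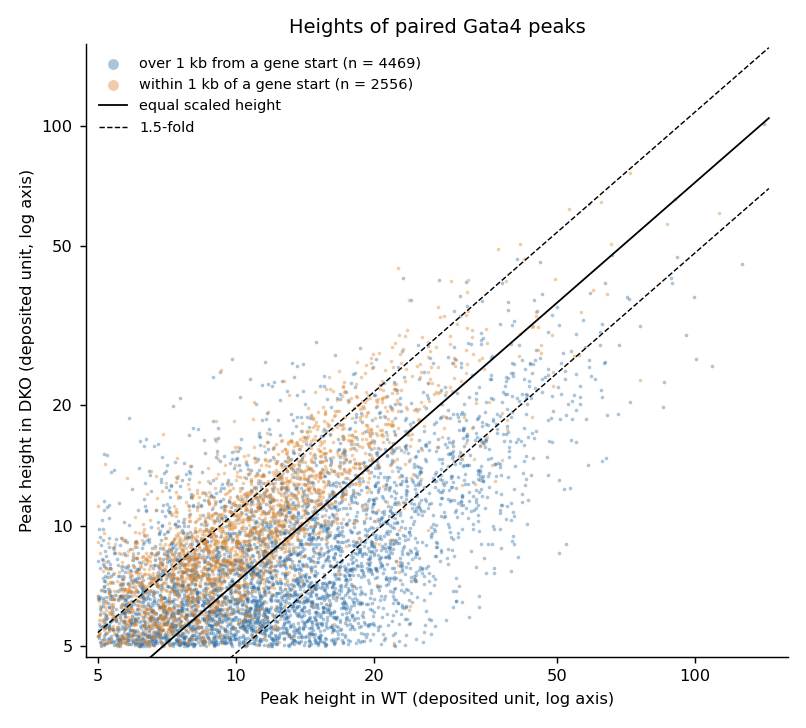
Height of each of the 7025 paired peaks in WT (horizontal log axis) and DKO (vertical log axis), in deposited units, with sites within 1 kb of a gene start in orange and the others in blue. The solid line marks equal scaled height and the dashed lines 1.5-fold; the orange points lie mostly along and above the solid line, and the blue points spread to both sides of it.

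The sites at the WT-high end were rich in GATA motifs, poor in CpG and far from gene starts. WGATAA lay within the 501-bp window of 92.9% of them (90.7 to 94.6), against 58.8% of all paired sites, and 67.8% held at least 2 matches, against 33.4%. Their windows held a median of 5 CpGs, against 10 in all pairs. Only 19 of the 702 sites (2.71%) lay within 1 kb of a gene start, against 36.4% of all pairs, and 48.3% had no gene within 5 kb.

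The DKO-high end was composed of 2 unlike groups of sites. Overall 45.0% of its sites held WGATAA (41.4 to 48.7), the median CpG count was 17.5, and 333 sites (47.4%) lay within 1 kb of a gene start. Those 333 promoter sites had a median of 41 CpGs, and 11.7% of them held a GATA motif. The other 369 sites had a median of 7 CpGs, and 75.1% of them held a GATA motif. The difference between the ends, DKO-high minus WT-high, was −47.9 percentage points for WGATAA (−51.9 to −43.6), 44.7 points for a gene start within 1 kb (40.8 to 48.6) and 12.5 CpGs (8 to 18).

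When the sites were divided into 10 equal classes along the ratio, the share with WGATAA was 92.9% in the class highest in WT, 54.9% in the fifth class and 34.5% in the ninth, and 45.0% in the class highest in DKO. The share within 1 kb of a gene start was 2.70% in the first class, 62.1% in the ninth and 47.5% in the tenth. The median CpG count was 5 in the first class, 32 in both the eighth and the ninth, and 17 in the tenth. The last class corresponds to the DKO-high end, with the 2 groups of sites described above.

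**Figure D2:**
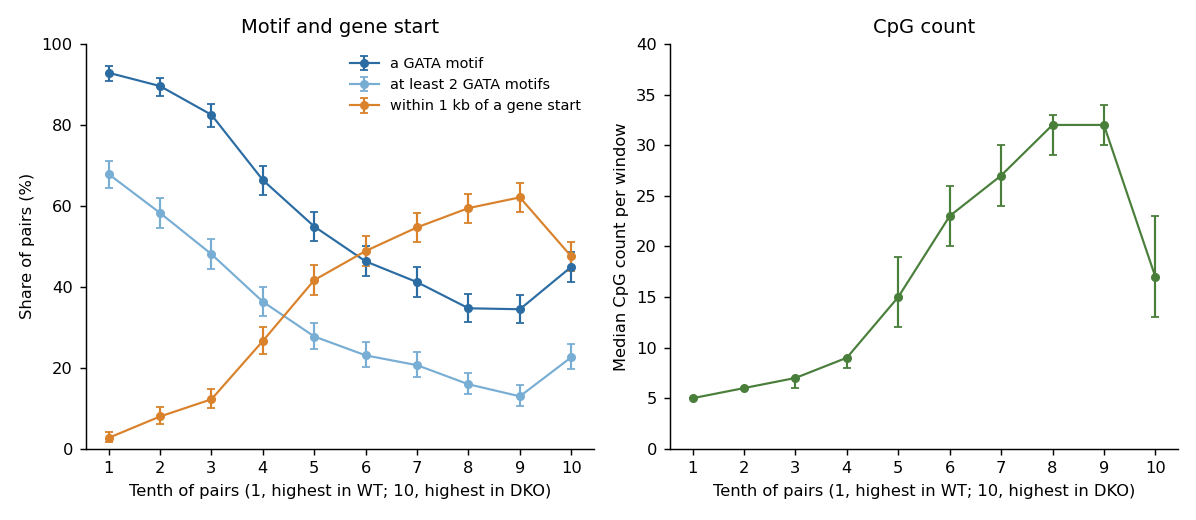
Share of sites with a GATA motif, with at least 2 motifs and within 1 kb of a gene start (left, percent) and median CpG count per 501 bp (right) in 10 equal classes of the scaled height ratio, from the sites highest in WT to those highest in DKO. Points are shares or medians and bars their 95% intervals over sites; the motif share is 92.9% in the first class and 45.0% in the last, and the CpG count is highest, at 32, in the eighth and ninth.

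Promoter sites were relatively higher in DKO and varied little among themselves. The 2556 sites within 1 kb of a gene start had a median ratio of 0.35 (SD over sites 0.39), and 26.5% of them passed 1.5-fold in DKO and 2.07% in WT, against 17.7% and 17.3% of all pairs. In contrast, the 2164 sites with no gene within 5 kb had a median ratio of −0.16 (SD 0.65), with 12.7% past 1.5-fold in DKO and 26.2% in WT. The 568 sites between 1 and 5 kb from a start lay between them, at −0.05.

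CpG count and GATA motif each went with the ratio. The median was 0.37 at the 2318 CpG-rich sites (27 or more CpGs), 0.00 at the middle class and −0.27 at the 2375 CpG-poor sites (6 or fewer). It was 0.34 at sites without WGATAA, −0.02 with 1 match, −0.23 with 2 and −0.39 with 3 or more. Within the CpG-poor class the median was −0.30 with a motif and 0.01 without, within the middle class −0.12 and 0.23, and within the CpG-rich class 0.21 and 0.40. Sites with a motif therefore had the lower median in each CpG class. Nearly all CpG-rich sites (90.2%) were also within 1 kb of a gene start, but the 227 that were not had a median of 0.33, close to the 0.38 of those that were. Conversely, the 37 CpG-poor sites within 1 kb of a start had a median of −0.05 (−0.31 to 0.29), against −0.28 for the CpG-poor sites further away. Across all pairs Spearman's rho of the ratio was 0.43 with the CpG count and −0.42 with the number of motifs (n = 7025 sites, 2 libraries).

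The same classes differed in the background of the ES libraries, in which the fusion protein had not been activated by Dex. For the ES ratios an ES height under 1 was taken as 1, which applied to 7.72% of WT and 28.1% of DKO heights. Over all pairs the median log2 of the unscaled ES height, DKO over WT, was −0.47. It was −0.26 at CpG-rich and −0.63 at CpG-poor sites, −0.28 within 1 kb of a start, −0.77 at sites with 3 or more motifs, and −0.89 at the WT-high end against −0.03 at the DKO-high end. The ES ratio and the Flk1(+) ratio had a correlation of r = 0.38 across sites (n = 7025). When each Flk1(+) height was divided by its own ES height, with a background under 1 taken as 1, the difference between CpG-rich and CpG-poor sites shrank from 0.64 to 0.15, that between promoters and other sites from 0.50 to 0.10, and that between sites with and without a motif from −0.51 to −0.10. All 3 kept their direction. Subtraction of the ES height in place of division left them at 0.67, 0.52 and −0.53. Each list was called at an enrichment of 3.0 over its ES library. A low peak could therefore be listed only where its ES height was low. The ES ratios at the ends, their correlation with the Flk1(+) ratio and the divided heights were thus partly set by the calling. The part of the ES background in the height ratios was not tested.

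**Figure D3:**
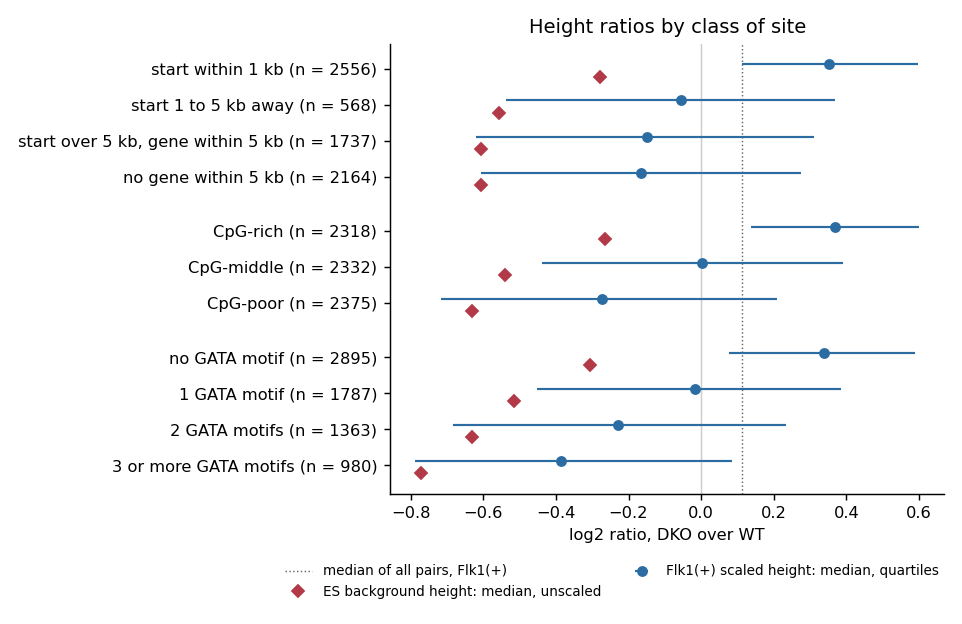
Log2 ratio of DKO over WT by distance to a gene start, CpG count and number of GATA motifs. Blue points are the median scaled Flk1(+) ratio with quartiles as bars, and red diamonds the median unscaled ES background ratio; in each of the 3 groupings both run from higher values at promoters, CpG-rich or motif-free sites to lower values at distal, CpG-poor or motif-rich sites.

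The difference in motif content was also present among sites of like height. In each of 10 classes of equal mean height, the WT-high end held WGATAA more often than the DKO-high end. The shares at the WT-high ends ranged from 64.3% in the class with the lowest peaks to 97.1% in the class with the tallest, and those at the DKO-high ends were 55.7% at most. With ends taken inside these classes the difference over all sites was −42.7 points.

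The 4469 distal sites, those over 1 kb from any gene start, were then compared on their own, with ends of 447 sites each. The median CpG count was 5 at the WT-high end (4 to 5) and 7 at the DKO-high end (6 to 8), and 67.8% and 45.6% of their sites were CpG-poor. Over all distal sites the median ratio of CpG-rich sites was 0.61 above that of CpG-poor sites, against 0.64 in all pairs. WGATAA was in 92.4% of WT-high sites (89.6 to 94.5) and 74.9% of DKO-high sites (70.7 to 78.7), and at least 2 matches were in 67.8% and 38.5%. The ends also differed in other short words in the central 201 bases. The 16 words examined were chosen after the ends had been inspected, so their shares describe these sites and support nothing further. AGGTGTGA, a word bound by T-box factors such as Brachyury, Eomes and Tbx6 of early mesoderm, was in 27 of 447 WT-high sites (6.04%, 4.18 to 8.65) and in 1 DKO-high site (0.22%), against 2.77% of all distal sites. Its core AGGTG was in 55.9% and 29.8%, and the homeodomain word TAATTA in 11.4% and 1.79%. The Ets word AGGAAG ran the other way and was in 28.4% of WT-high and 55.0% of DKO-high sites, against 37.1% of all distal sites. Its form with a CpG, CGGAAG, was in 0.89% and 11.0%, and the AP-1 word TGANTCA in 10.7% and 17.7%. Words of Runx (TGTGGT), Tead (GGAATG) and Sox (ACAATG) factors had overlapping intervals at the ends, as had the E-box CAGCTG (18.3% and 20.1%). TGCTAA, which was not assigned to a family here, was in 20.8% of WT-high and 7.83% of DKO-high sites, and GTTAAT in 14.8% and 3.80%.

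Because the words were chosen after the ends of this ratio had been inspected, the ratios and differences by word given next are also descriptions only. They support nothing further. Distal sites with AGGTGTGA had a median ratio of −0.54 (−0.73 to −0.45), against −0.13 for those without. The T-box and Ets words were then combined. Where both were present the median was −0.55 (41 sites), where the T-box word stood alone −0.54 (83 sites), where the Ets word stood alone −0.02 (1618 sites), and with neither −0.20 (2727 sites). For the sites with the T-box word the intervals were wide, −0.77 to −0.34 with the Ets word and −0.77 to −0.38 without it. With ends taken inside classes of equal height, the differences of DKO-high minus WT-high were −4.44 points for AGGTGTGA, from −5.82, and 25.6 points for AGGAAG, from 26.6.

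**Figure D4:**
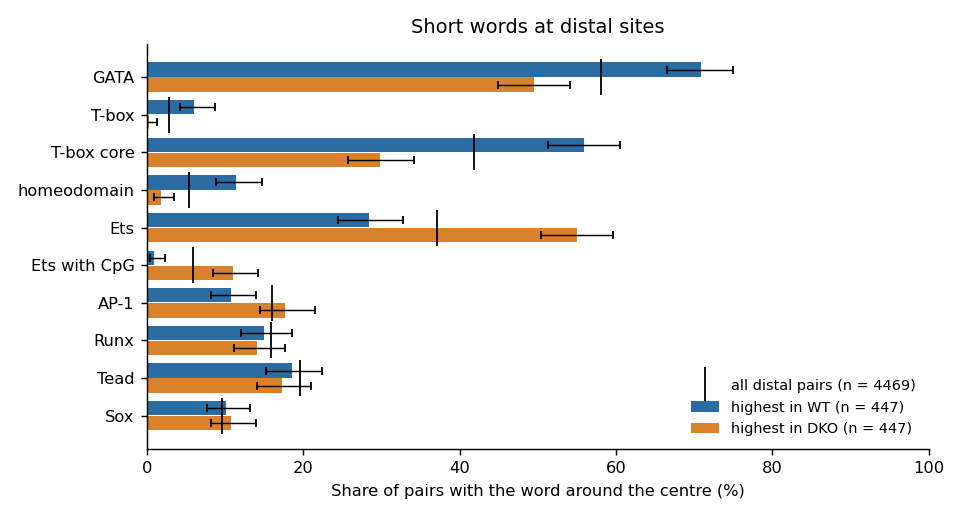
Share of distal sites (percent) that held a short word of each transcription factor family in the central 201 bases, at the WT-high end (blue) and the DKO-high end (orange), with 95% Wilson intervals; black marks give all 4469 distal sites. The GATA row counts AGATAA alone; T-box words are more frequent at the WT-high end (6.04% against 0.22%) and the Ets word at the DKO-high end (55.0% against 28.4%).

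Letters beside the GATA core also differed in part. A C directly before GATAA, which makes CGATAA with a CpG inside the motif, preceded 1.77% of all GATAA matches at the WT-high end, 6.36% at the DKO-high end and 3.35% over all pairs (1243 and 440 matches at the ends). The G that most often follows GATAA was at 53.3% and 51.6% of the matches. Counts by site used the wider 501-bp window, so they are not the same measure. There CGATAA was in 4.42% of WT-high sites (3.13 to 6.2) and 5.84% of DKO-high sites (4.33 to 7.83), against 4.91% of all pairs, a difference that was not resolved. WGATAA followed directly by CG was in 3.42% of WT-high and 2.14% of DKO-high sites, with overlapping intervals.

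The 12 lowest ratios belonged to distal sites, with 0 to 8 CpGs each. The lowest of all was the site upstream of Bcmo1, the enzyme that cleaves beta-carotene, with a height of 50.5 in WT and 8.52 in DKO (ratio −2.09). Its ES background was 4.54 in WT and 0.52 in DKO. The site near Apcdd1, a membrane inhibitor of Wnt signals, had heights of 52.3 and 9.01 (−2.06), and a site 45987 bp upstream of Sh3rf1 had 32.3 and 5.90 (−1.98). A site near Hapln1, a link protein of the hyaluronan matrix, had 33.8 and 6.26 (−1.96). The site beyond the end of Xrcc4, a DNA end-joining factor, had 33.8 and 6.68 (−1.87). Introns of Cacna1a, Adamts14, 5730559C18Rik and Vac14 held 4 further sites, at ratios of −1.85, −1.80, −1.83 and −1.80. WGATAA was present in 10 of the 12, and those in Cacna1a and Vac14 had none.

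Of the 12 highest ratios, 10 belonged to distal sites. The others, at Xbp1 and in Hhex, lay within 1 kb of a start by the distances of the lists. The gene annotation puts the Hhex site 2925 bp from the start of the gene. The highest was the site upstream of Ipp, with a height of 5.85 in WT and 18.6 in DKO (2.14), at an ES background of 0.59 and 0.64. An intron of Afap1l1, an actin filament protein, had 5.22 and 15.0 (2.00). At Xbp1, the transcription factor of the unfolded protein response, the site lay at the start of the gene with 35 CpGs and no WGATAA, and had heights of 5.17 and 14.3 (1.94). Its ES background was also higher in DKO, 3.96 against 1.58, and after division by the ES heights its ratio was −0.079. In Hhex, a homeobox gene of endoderm and blood progenitors, the intron site, which the list places 945 bp from a start, had 9.29 in WT and 24.5 in DKO (1.88), with 16 CpGs. The site in Plcg2, a phospholipase of receptor signalling, had 8.93 and 23.6 (1.87). The site upstream of Shank3, a synaptic scaffold, had 9.21 and 24.3 (1.87), and that near Fat4, a giant cadherin, 6.19 and 16.3 (1.87). These sites were of moderate height in WT, between 5.17 and 9.78, and reached up to 26.1 in DKO.

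The tallest paired sites stood near equality or on either side. The intron of Cd59a, a complement inhibitor, held the tallest of the paired peaks in both genotypes, 142 in WT and 101 in DKO, at a ratio of −0.02. The site downstream of Wsb1 was nearly equal too, at 90.4 and 65.5 (0.01). Promoters of Got1, an aspartate aminotransferase, and Spty2d1 had 113 and 60.5 (−0.43) and 72.1 and 76.3 (0.55). The site 4278 bp upstream of Lrig3 leaned to WT, at 127 and 45.2 (−1.01). Among tall sites the ratios closest to 0 were those in introns of Il17rd, an antagonist of FGF signals, with 23.5 and 17.0, and Csgalnact1, an enzyme of chondroitin sulfate synthesis, with 66.0 and 47.6, and that near Dhrs7c with 28.0 and 20.1.

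Among cardiac regulators, 21 of 32 genes had paired sites, 47 in all, of which 9 passed 1.5-fold in DKO and 9 in WT (19.1% each, against 17.7% and 17.3% of all pairs). The list had a median ratio of −0.11. Sites higher in WT were downstream of Tbx1, a T-box factor of the second heart field (22.4 and 6.51, −1.31), in Hopx, a homeodomain-only cofactor (19.0 and 5.74, −1.25), and upstream of Mesp1, a basic helix-loop-helix factor of the earliest heart precursors (17.8 and 6.31, −1.02). Near the start of Hes1, a Notch target, the heights were 33.0 and 14.6 (−0.70). Sites higher in DKO included an intron of Myocd, a coactivator of Srf (5.08 and 8.96, 1.29), and the promoter of Srf itself (6.34 and 8.30, 0.86). The Myocd site was low in WT, and after division by the ES heights its ratio was −0.34. The 3 sites of Gata6 were within 1.5-fold, at −0.30, −0.14 and 0.34, of which that at −0.14 came to −0.88 after division by the ES heights. Gata4, Nkx2-5 and Tnnt2 had no paired site.

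The 25 sites at Flk1, vessel and blood genes were divided, with 5 past 1.5-fold in each direction (20%, against 17.7% of all pairs in DKO and 17.3% in WT) and a median of 0.12. Downstream of Kdr the heights were 39.7 in WT and 11.4 in DKO (−1.33), whereas the intron site shown above had 24.9 and 28.2 (0.65) and another intron site 13.3 and 7.30 (−0.39). Flt1, which encodes VEGF receptor 1, had 5 paired sites. Those 124284 and 123598 bp from the start were relatively higher in WT, with 14.4 and 5.01 (−1.05) and 18.9 and 7.66 (−0.83). The intron site 67946 bp from the start had 13.4 and 23.5 (1.28), and that 4325 bp from it 6.67 and 8.19 (0.77), while the site nearest the start, at 3191 bp, had 10.2 and 5.09 (−0.53). An intron of Runx1, required for definitive blood, had 32.2 and 11.5 (−1.01) with 6 GATA motifs, and was at 0.48 after division by the ES heights. Erg, an Ets factor of endothelium, had 3 sites, with 6.38 and 10.9 (1.24), 16.0 and 14.1 (0.29), and 20.8 and 10.4 (−0.52).

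Contractile genes held 25 sites, 5 past 1.5-fold in WT (20%, against 17.3% of all pairs and 26.0% of distal pairs) and 1 in DKO (4%, against 17.7%), with a median of −0.17. The former were at Ttn (15.2 and 5.23, −1.06; 17.5 and 8.03, −0.65), near Actc1 (13.1 and 5.01, −0.91), and in Myh9 and Myh11, and the latter was at Myl7 (7.14 and 8.14, 0.66, and −0.0048 after division by the ES heights). Endoderm genes held 21 sites, 3 past 1.5-fold in DKO (14.3%, against 17.7% of all pairs) and 1 in WT (4.76%, against 17.3%), with a median of 0.23. The former were at Hhex, in Cubn, the cubilin receptor (5.30 and 7.82, 1.03), and 63 bp from the start of Tnfrsf12a (5.58 and 7.18, 0.84). The Tnfrsf12a site was counted here because Cldn6, a claudin gene of the list, lies within 5 kb of it. Divided by the ES heights, the Cubn site came to 0.57 and the Tnfrsf12a site to −0.17. The site past 1.5-fold in WT was upstream of Krt18 (34.9 and 16.3, −0.62, and 0.78 after division by the ES heights). Sox7, Sox17 and Foxa2 had no paired site, and the site in Lgmn was at 0.25. Spink4, a protease inhibitor outside these lists, had 75.9 in WT and 23.2 in DKO just before its start (−1.24). Of 17 sites at BMP and Id genes, 2 passed 1.5-fold in each direction (11.8%, against 17.7% and 17.3%), and Smad1, which transmits BMP signals, supplied 3 of these 4, with −1.23, −0.80 and 0.89 in its introns.

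The 41 sites at genes of cytosolic ribosomal proteins were mostly promoters (36 within 1 kb), with a median of 37 CpGs. Their median ratio was 0.17, and 9 passed 1.5-fold in DKO (22%, against 17.7% of all pairs and 26.5% of promoter sites). In WT 2 passed it (4.88%, against 17.3% and 2.07%), both over 1 kb from a gene start. Of the 9, the sites at Rpl19, Rpl27 and Rpl31 and 1 at Zwilch, near Rpl4, changed sign after division by the ES heights. They came to −0.35, −0.13, −0.40 and −0.40, and the others kept their sign. The median of all promoter sites was 0.35. The study listed 2 groups of genes as hyper-responsive to Gata4 in expression arrays of these cells. The first had 11 sites, 10 of them distal, with a median of −0.00. In WT 4 passed 1.5-fold (36.4%, against 17.3% of all pairs and 26.0% of distal pairs), at Srgn, Ptk2b and Ttn. In DKO 3 passed it (27.3%, against 17.7% and 12.6%), at Foxo3 and Clic5. Divided by the ES heights, Ptk2b came to 0.076, Clic5 to −1.01 and 1 Foxo3 site to −0.20, and the others kept their sign. The second group had 21 sites with a median of −0.42. In the second group 10 sites passed 1.5-fold in WT (47.6%, against 17.3% of all pairs and 26.0% of distal pairs). In DKO 2 passed it (9.52%, against 17.7% and 12.6%). The 10 included 3 in Ank3, 2 in Ptprb and 2 in Sh2d4a, so that 3 genes supplied 7 of them. The intron of Sh2d4a also held a site that leaned to DKO, at 14.9 and 28.7 (1.42). The site in Thbs4, of the same group, was at −0.11.

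**Figure D5:**
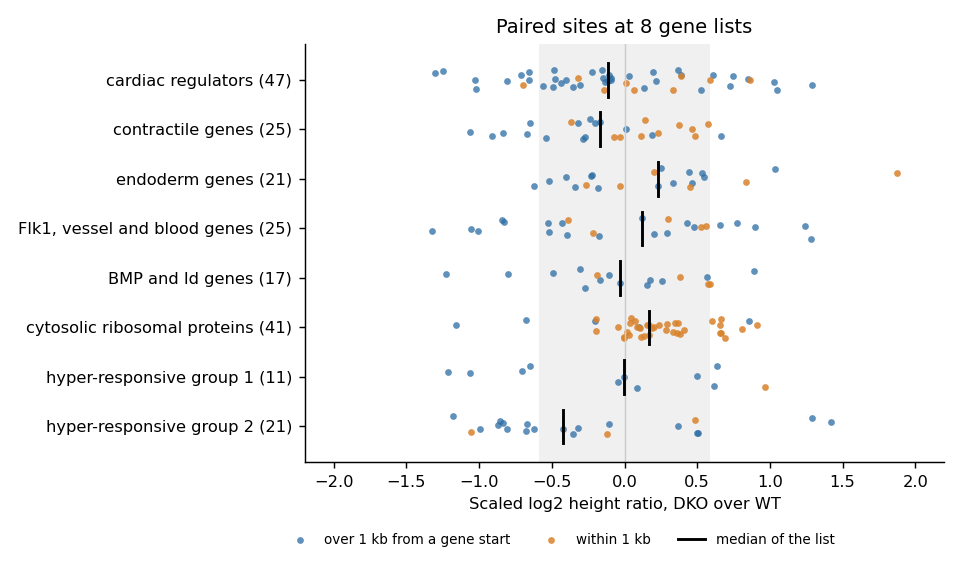
Scaled log2 height ratio, DKO over WT, of each paired site at the genes of 8 lists, with the number of sites in parentheses. Blue points are sites over 1 kb from a gene start, orange points those within 1 kb, black lines list medians, and the grey band is the range within 1.5-fold; the ribosomal protein sites cluster at small positive ratios, and the sites of the vessel and cardiac lists spread to both sides.

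Sites of a single gene leaned to opposite genotypes at some genes. Of 4711 genes with a paired site, 961 had at least 2. In 316 of these a site passed 1.5-fold in DKO and none in WT, in 218 the reverse, and in 46 (4.79%) sites passed it in both directions. Of all pairs, 17.7% passed it in DKO and 17.3% in WT. A site near several genes was counted for each of them. Among the 46 were Kdr, Flt1, Smad1 and Zfpm1, the cofactor known as Fog1. Zfpm1 had 9 paired sites, among them 55.0 and 19.4 (−1.03), 58.8 and 25.9 (−0.71) and 10.0 and 14.7 (1.03). After division by the ES heights these 3 were at 1.52, 0.72 and 1.10. Adjacent sites less than 2 kb apart had a correlation of their ratios of r = 0.50 (n = 488 adjacent sites in the same libraries, some with overlapping windows), which was 0.18 between 2 and 20 kb and 0.08 between 20 and 200 kb.

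By chromosome, medians of the ratio were lowest on chromosome 8 (−0.07, 497 sites) and highest on chromosome 11 (0.25, 789 sites). On chromosome 8 the median was −0.34 at CpG-poor and 0.25 at CpG-rich sites, and on chromosome 11 −0.14 and 0.46, so that the order of the CpG classes was the same on both. The median ES background ratio was also lowest on chromosome 8 (−0.79) and highest on chromosome 11 (−0.20). Chromosome 8 had 1365 WT and 2108 DKO peaks in all, of which 36.4% and 23.6% were paired. A difference in copy number between the clones was not tested. Without chromosome 8 the difference between CpG-rich and CpG-poor sites was 0.65 and that between the ends in WGATAA −48.4 points.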

How the data were processed

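Gata4 ChIP-seq was analysed from 4 libraries, 1 per condition. Per the labels the reads were processed with CASAVA 1.8.1 and cutadapt, and the authors called peaks on mm9 with DNAnexus tools (kernel density bandwidth 30, threshold 5.0, enrichment 3.0), taking as control for each Flk1(+) library the ES cells of that genotype. The aligner and any scaling for depth are not given in the sources used here. The deposited signal of a peak is the height of the authors' profile, for the Flk1(+) and the ES library. Which list belongs to which genotype was taken from the number of peaks the study gives. The authors' enrichment, q-value and rank columns were not used.

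Each list was reduced to 1 entry per position, since a peak near several genes is listed once for each. Heights were divided by their median over the pairs. CpGs and motifs were counted on both strands in the 501-bp window centred between the paired positions, joined from the deposited windows, all 43143 of which matched mm9. Distances to gene starts, and gene names within 5 kb, are those of the lists; for sites without such a gene the nearest protein-coding gene of GENCODE vM1 is named, a step added to the design, and intron, upstream and downstream refer to that annotation. Shares have Wilson intervals, medians binomial order-statistic intervals, and differences intervals that combine both; they cover counting over sites only, and no test between conditions was possible. The sites named were the 12 lowest and 12 highest ratios, the 5 tallest pairs, the 3 nearest to 0 among the tallest 10%, set genes, and sites at 8 gene lists. The members, lists and words were chosen with earlier results of these data known. Pairing and counting were tested on simulated data. Python 3.11.15, NumPy 2.4.6, pandas 2.3.3, SciPy 1.17.1 and Matplotlib 3.10.9 were used.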

Additional observations from a re-analysis of the deposited data

How the results depend on the processing

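Every difference between the ends and between classes kept its direction under all alternatives tried. Differences between the ends are given as DKO-high minus WT-high, in the order WGATAA, gene start within 1 kb (both in percentage points) and median CpG count; the values in the report are −47.9, 44.7 and 12.5. With heights divided by the ES background they were −19.2, 19.1 and 3, and at sites with ES background below the median in both genotypes −18.9, 14.3 and 2.5. With both heights at least 10 they were −55.7, 53.2 and 26. Ends of 5% gave −36.2, 35.9 and 5, and ends of 20% gave 49.5 for the gene start and 21 for CpG. Quantile scaling gave 49.6 and 21, and pairing within 250 bp gave 50.6 and 23. Pairing within 50 bp gave a CpG difference of 8, and subtraction of the ES heights 8.5. Ends within classes of height gave −42.7 for the motif, WGATAR −42.5, and distal sites alone −17.4 with a CpG difference of 2. CpGs in the central 200 bp differed by 5.5.

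The difference in median ratio between sites with and without WGATAA (−0.51) was −0.10 after division by the ES background, −0.54 with both heights at least 10, −0.42 at low ES background, −0.47 for WGATAR, −0.54 for motifs in the central 200 bp and −0.40 at distal sites. That between CpG-rich and CpG-poor sites (0.64) was 0.15 after division, 0.58 at low ES background and 0.51 when classes were set by an observed to expected CpG ratio of 0.6. That between promoters and other sites (0.50) was 0.10 after division and 0.45 at low ES background. The cause of these shifts was not tested. Alternatives confined to distal sites, and AGGTG in place of AGGTGTGA (−26.2 points in place of −5.82), were added after the data were seen.

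Single-site ratios were recomputed for 108 sites, those named by the rule and those at the listed genes past 1.5-fold. Division by the ES background gave 26 of them the opposite sign, 18 of these among the 94 past 1.5-fold. The 18 came to −0.079 at Xbp1, −0.34 in the Myocd intron, −1.01 at Clic5, −0.20 at Foxo3, 0.78 at Krt18, −0.11 at Meis2, −0.0048 at Myl7, 0.076 at Ptk2b, −0.35 at Rpl19, −0.13 at Rpl27, −0.40 at Rpl31, 0.48 at Runx1, −0.021 at Smad6, −0.17 at Tnfrsf12a, −0.40 at Zwilch, and 0.77, 0.72 and 1.52 at Zfpm1. Division also took 5 sites past 1.5-fold, Gata6 (−0.88), Thbs4 (−0.68), a Kdr intron (−1.08), Got1 (−0.98, and −0.60 with subtraction) and Dhrs7c (1.31). Spty2d1 passed it with mean scaling (0.59), quantile scaling (0.80) and 50-bp pairs (0.59), and the other Kdr intron fell to 0.56 with both heights at least 10. Taking ends within classes of height cannot change a class median or a site's own ratio and was not run for those. No paired analysis was possible because each condition has 1 library. With 1 library and 1 clone per genotype, clone, depth and genotype cannot be told apart.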
